A study of Oryctolagus cuniculus with 24 samples.

Results

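A set of 56 rabbit genes was lower in intestinal epithelial cells (IEC) of rabbits that had received both whipworm ova and dextran sulphate sodium (DSS) than in IEC of untreated rabbits. The genes were chosen from 17318 by their values in these libraries. Values were expressed as CPM, the reads of a gene per 1000000 reads of the library, and a change is the difference between group means of log2(CPM + 1). A gene was included if it was nuclear and above 0 in at least 1 library of lamina propria mononuclear cells (LPMC), if its IEC change was under -1 with every TSO DSS library below every Veh Water library, and if its LPMC change for the same groups was above -1. Of 13212 nuclear genes above 0 in LPMC, 2381 had non-overlapping IEC groups in this direction and 174 of these passed the threshold of -1. The LPMC criterion then left out 118 genes.

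RNAseq was performed on both cell types of 12 New Zealand White rabbits, so that 24 libraries fell into 4 groups of 3 animals. By gastric tube, TSO rabbits were given 3 doses of 2500 embryonated ova of Trichuris suis, the whipworm of the pig, while Veh rabbits were given the vehicle of the ova. Fennel tea replaced drinking water in all groups, and from day 26 the tea of the DSS rabbits contained 0.1% DSS over 5 days. Caecal tissue was taken from all rabbits on day 35. The groups are therefore Veh Water (neither agent), TSO Water (ova alone), Veh DSS (DSS alone) and TSO DSS (both). No group was labelled as immunosuppressed. IEC were detached from the washed tissue with EDTA, and LPMC were then released from the remaining tissue by collagenase and purified on a density gradient. IEC and LPMC with the same rabbit number within a group come from the same animal. Rabbit 1 of Veh Water and rabbit 2 of TSO Water were kept in room B and all others, including every DSS rabbit, in room A.

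The caecal epithelium is a single layer of absorptive, mucus-secreting and dividing cells that separates the gut lumen from the lamina propria, where most of the mucosal leukocytes lie. DSS damages this layer and causes a colitis. Whipworm larvae live within the epithelium of the caecum and colon. The tables name genes by Ensembl identifier, chromosome and strand only. None of the identifiers matched the name table used here, which is of another assembly (mOryCun1.1). The function of the genes is therefore not described, and no marker of an epithelial or other cell type could be examined. The study annotated its identifiers with BetterBunny, which was not used here. In such bulk samples, fewer cells of a type and less RNA per cell cannot be told apart.

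By the reads recovered from the tables, IEC libraries held 13148511 to 27479793 reads and LPMC libraries 3685504 to 15770453 reads. LPMC of TSO DSS rabbit 3 had the fewest. The mitochondrial share of the reads was 20.1% to 21.0% in IEC of Veh Water, 20.9% to 46.5% in TSO DSS, 12.4% to 29.9% in Veh DSS and 17.4% to 41.7% in TSO Water. The highest share was that of TSO DSS rabbit 3. CPM is a share of all reads, so a library with more mitochondrial reads has lower CPM for nuclear genes. Values without mitochondrial genes are therefore given for the TSO DSS rabbits, for TSO Water and for Veh DSS against TSO Water in IEC.

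The level of the 56 genes in IEC of Veh Water ranged from 1.23 to 786 CPM, with a median of 12.0 CPM. The mean was at least 10 CPM for 30 genes and at least 100 CPM for 6. In TSO DSS, the IEC change ranged from -2.18 to -1.01, with a median of -1.23, in comparison to -0.15 over all nuclear genes above 0 in LPMC. These are the values that chose the genes, and they are given without a test. The LPMC change of the same genes ranged from -0.96 to 1.00 with a median of -0.21, and was below 0 for 37 genes and above 0 for 18. Over the whole table, 2.78% of 9778 genes were called by limma in either direction between IEC of TSO DSS and Veh Water, and 0.174%, or 17 genes, were called lower. The number called lower was 1 without Veh Water rabbit 3, 7 and 11 without Veh Water rabbit 1 or 2, and 2, 71 and 33 without TSO DSS rabbit 1, 2 or 3. A call required a log2 fold change beyond 1 in either direction and a p-value under 0.05 after Benjamini-Hochberg adjustment over all genes tested.

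**Figure D1:**
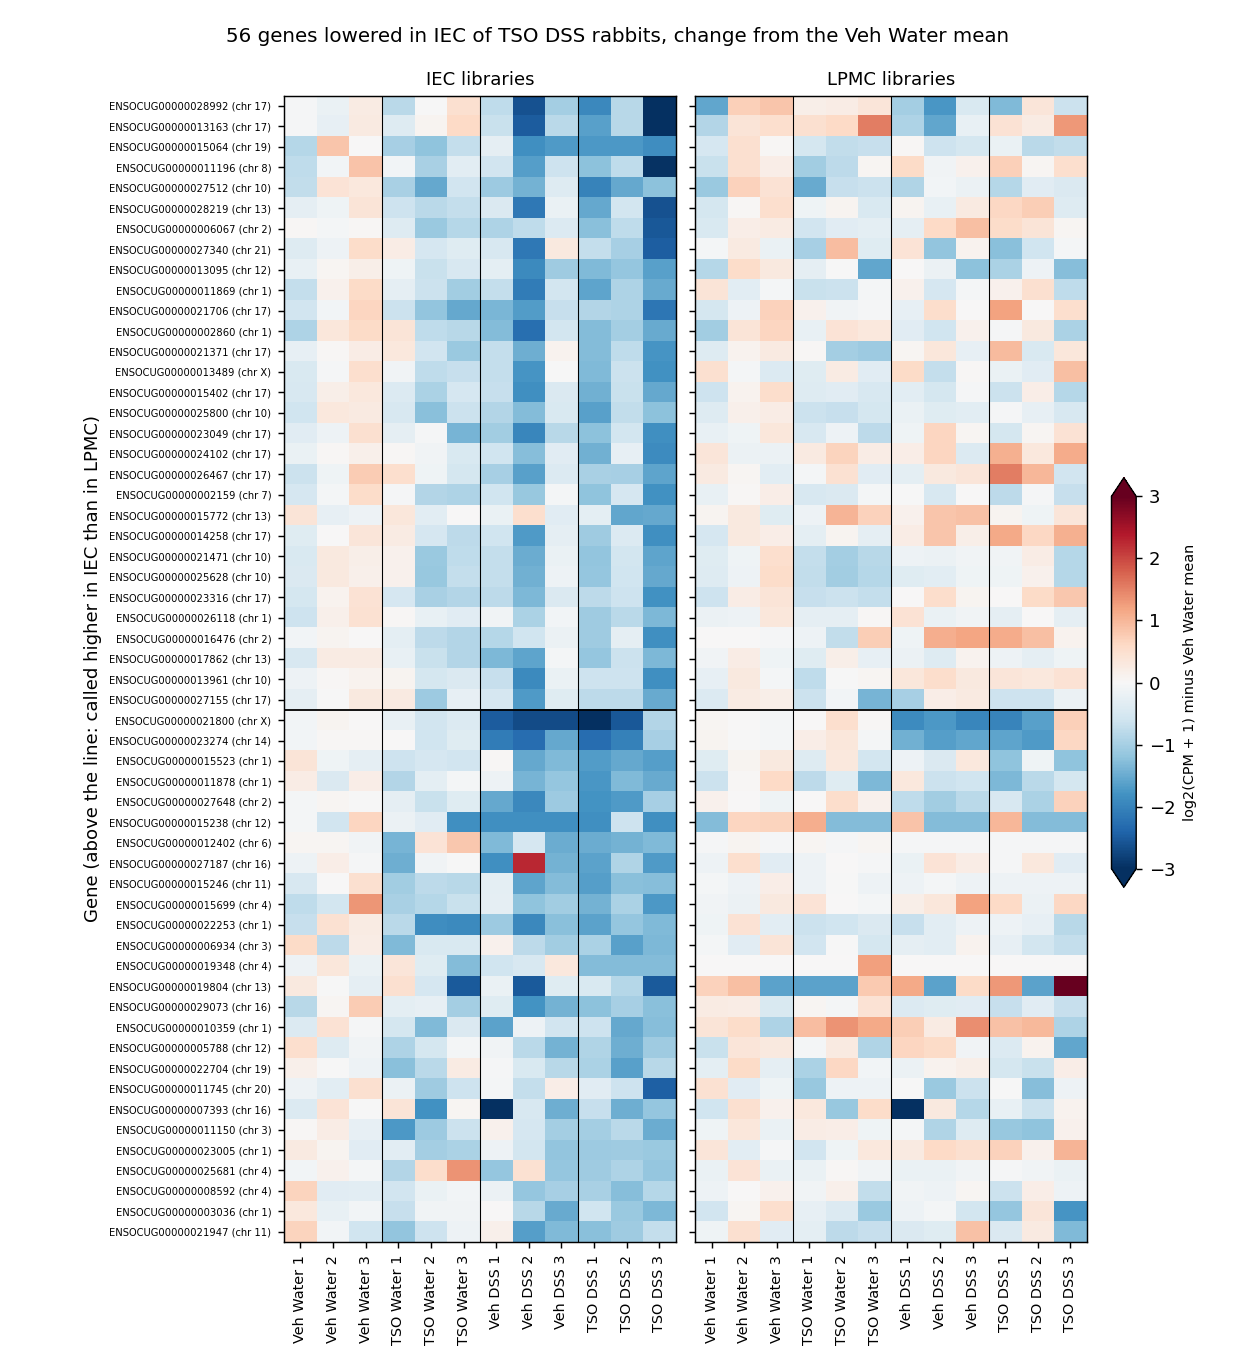
Heatmap of the 56 genes (rows, with chromosome) in 12 IEC and 12 LPMC libraries (columns, 3 rabbits in each group). Colour is log2(CPM + 1) in the library minus the mean of the 3 Veh Water libraries of the cell type, cut at -3 and 3. The 30 genes above the line were called higher in IEC than in LPMC, and 26 of them have their lowest TSO DSS value in IEC of rabbit 3 and 27 their lowest Veh DSS value in IEC of rabbit 2. These counts are by CPM over all reads.

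The largest fall was that of ENSOCUG00000028992 on chromosome 17, which was also the most abundant gene of the set. In IEC, it was at 759, 674 and 925 CPM in the 3 Veh Water libraries and at 202, 435 and 56.9 CPM in TSO DSS. It was at 443, 768 and 1084 CPM in TSO Water and at 460, 127 and 386 CPM in Veh DSS. The Veh DSS and TSO Water groups overlapped only by TSO Water rabbit 1, and the mean was 786 ± 127 CPM (SD, n = 3) in Veh Water, 765 ± 320 in TSO Water, 324 ± 175 in Veh DSS and 231 ± 190 in TSO DSS. In LPMC, the same gene was at 10.2, 53.1 and 56.9 CPM in Veh Water and did not exceed 56.9 CPM in any library. Its LPMC change in TSO DSS was -0.53, and -1.31 without Veh Water rabbit 1, so that it no longer met the rule without this rabbit or in room A only.

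ENSOCUG00000013163, on the same chromosome and strand, followed it closely. Its IEC libraries held 666, 578 and 821 CPM in Veh Water, 521, 718 and 1036 CPM in TSO Water, 426, 119 and 388 CPM in Veh DSS and 218, 385 and 48.3 CPM in TSO DSS. In both genes TSO DSS rabbit 3 and Veh DSS rabbit 2 were the lowest of the 12 libraries. The ratio of ENSOCUG00000028992 to ENSOCUG00000013163 stayed between 0.851 and 1.18 over the 12 IEC libraries. Whether they share reads was not tested. In LPMC they came apart, since ENSOCUG00000013163 was at 60.1, 52.5 and 110 CPM in TSO DSS and ENSOCUG00000028992 at 12.1, 40.9 and 20.1 CPM.

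ENSOCUG00000021800 on chromosome X and ENSOCUG00000023274 on chromosome 14 had a different pattern. ENSOCUG00000021800 was at 12.1, 13.8 and 13.1 CPM in IEC of Veh Water and at 11.0, 8.35 and 9.52 CPM in TSO Water. It was at 1.46, 1.18 and 1.19 CPM in Veh DSS and at 0.641, 1.39 and 6.54 CPM in TSO DSS. All 3 Veh DSS rabbits and 2 of the 3 TSO DSS rabbits were therefore low, and TSO DSS rabbit 3 lay between them and the rabbits without DSS. ENSOCUG00000023274 was at 452, 489 and 488 CPM in Veh Water, 481, 313 and 373 CPM in TSO Water, 111, 96.4 and 163 CPM in Veh DSS and 97.4, 115 and 237 CPM in TSO DSS.

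The remaining 2 of the 6 largest falls were less regular. ENSOCUG00000015064 on chromosome 19 was at 3.31, 12.8 and 6.84 CPM in IEC of Veh Water and at 1.35, 1.34 and 1.14 CPM in TSO DSS. Its controls differed more among themselves than the TSO DSS libraries did. ENSOCUG00000011196 on chromosome 8 was at 14.0, 23.1 and 44.8 CPM in Veh Water and at 9.82, 14.0 and 2.27 CPM in TSO DSS, where the lowest control and the highest TSO DSS library nearly touched.

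**Figure D2:**
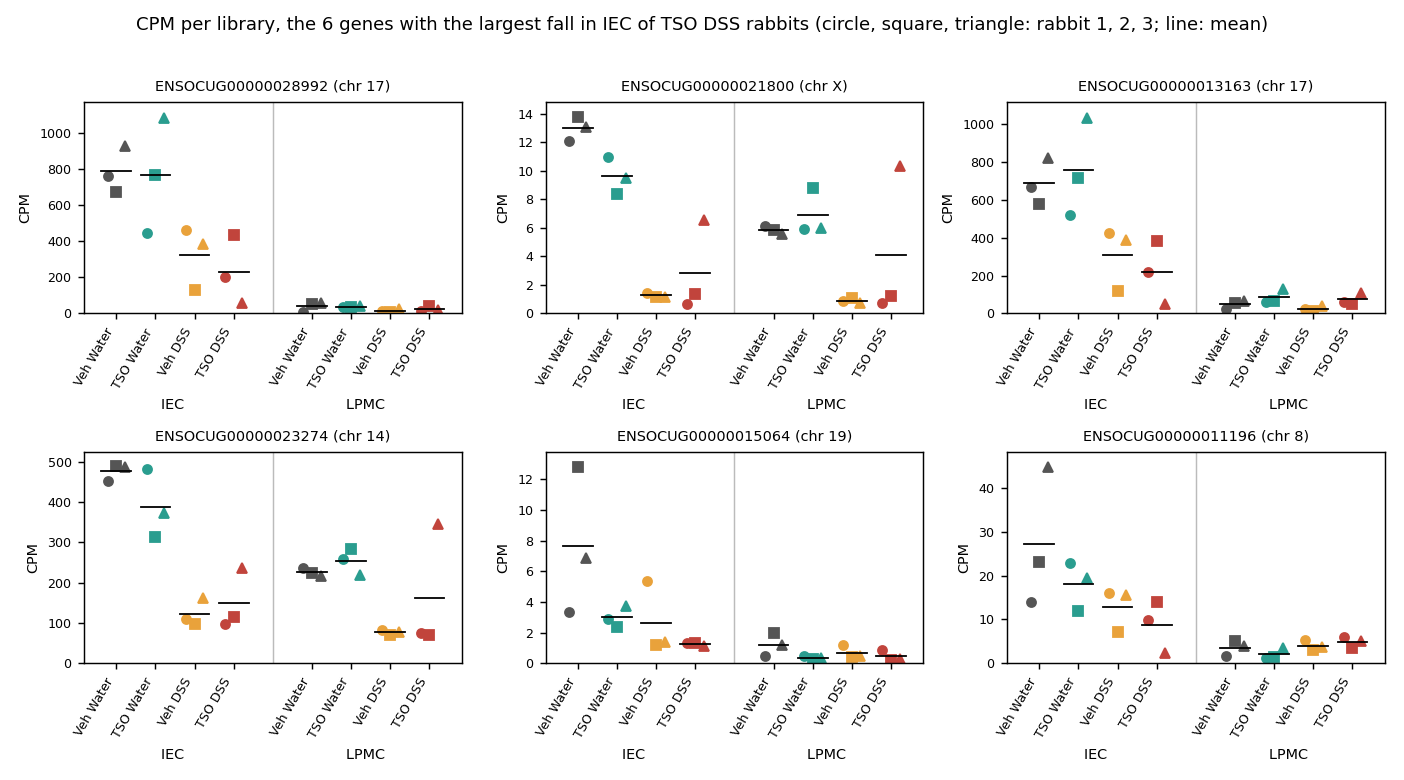
CPM per library (linear axis from 0) of the 6 genes with the largest fall in IEC of TSO DSS, for IEC on the left and LPMC on the right of each panel. Points are rabbits 1 (circle), 2 (square) and 3 (triangle) of each group and lines are group means; ENSOCUG00000028992 lies between 56.9 and 1084 CPM in IEC and at 56.9 CPM or below in LPMC, whereas ENSOCUG00000021800 and ENSOCUG00000023274 are low in all 3 Veh DSS rabbits of both cell types.

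The other abundant genes changed by less. ENSOCUG00000014258 on chromosome 17 was at 268, 344 and 441 CPM in IEC of Veh Water and at 164, 257 and 95.4 CPM in TSO DSS. ENSOCUG00000002159 on chromosome 7 was at 166, 226 and 346 CPM in Veh Water and at 102, 166 and 65.7 CPM in TSO DSS. In both, TSO DSS rabbit 3 was the lowest and Veh Water rabbit 1 the lowest control. ENSOCUG00000008592 on chromosome 4 was at 324, 161 and 165 CPM in Veh Water and at 104, 84.7 and 113 CPM in TSO DSS, where Veh Water rabbit 1, the control of room B, was far above the other controls.

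The threshold separated genes that hardly differ. Just inside it were ENSOCUG00000027155 on chromosome 17, with a change of -1.03, ENSOCUG00000003036 on chromosome 1, with -1.02, and ENSOCUG00000021947 on chromosome 11, with -1.01. ENSOCUG00000027155 was at 11.1, 13.4 and 16.8 CPM in IEC of Veh Water and at 7.44, 7.41 and 4.15 CPM in TSO DSS. ENSOCUG00000003036 was at 66.8, 45.4 and 50.4 CPM in Veh Water and at 34.8, 24.2 and 20.5 CPM in TSO DSS. ENSOCUG00000021947 was at 5.72, 3.03 and 1.83 CPM and at 0.770, 1.04 and 1.59 CPM. Just outside were ENSOCUG00000007350 on chromosome 17, ENSOCUG00000016257 on chromosome 1 and ENSOCUG00000016776 on chromosome 13, with -0.997, -0.996 and -0.995. ENSOCUG00000007350 was at 17.5, 17.6 and 10.9 CPM in Veh Water and at 5.71, 6.29 and 9.56 CPM in TSO DSS. ENSOCUG00000016257 was at 14.0, 22.4 and 24.3 CPM and at 8.08, 13.4 and 7.62 CPM, and ENSOCUG00000016776 at 169, 119 and 145 CPM and at 85.0, 82.0 and 51.5 CPM. A total of 27 genes that met the other criteria lay between -1 and -0.9, these 3 included.

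The fall was not carried alike by the 3 TSO DSS rabbits. The lowest of the 3 TSO DSS libraries was that of rabbit 3 for 35 of the 56 genes, of rabbit 1 for 14 and of rabbit 2 for 7. These counts are by CPM over all reads and were not made without mitochondrial genes. The median change of the 56 genes from the Veh Water mean was -1.23 in rabbit 1, -0.93 in rabbit 2 and -1.54 in rabbit 3. The median over 9658 genes was -0.14, -0.060 and -0.52 in these libraries. With mitochondrial genes left out of the total, the medians of the set were -1.25, -0.97 and -1.27, and that over all genes in rabbit 3 was 0.013. The same rule then found 39 genes, of which 37 were among the 56. Of the 37 that remained, ENSOCUG00000028992, ENSOCUG00000013163 and ENSOCUG00000015064 belonged to the 6 largest falls, whereas ENSOCUG00000021800, ENSOCUG00000023274 and ENSOCUG00000011196 no longer met the rule.

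**Figure D3:**
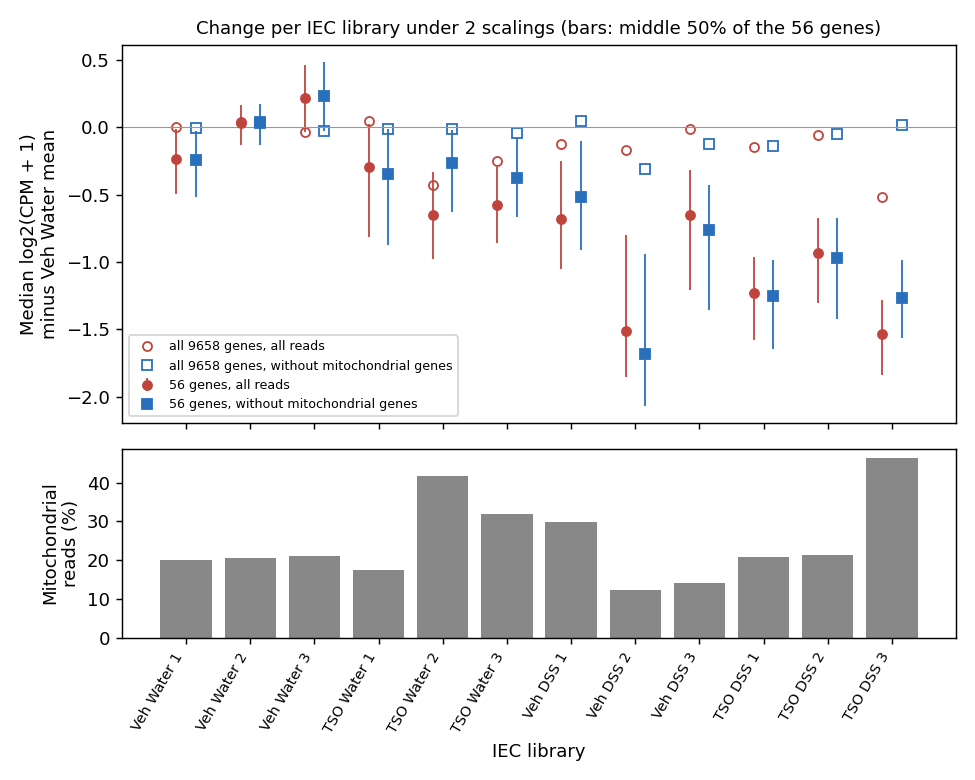
Upper panel: change from the Veh Water mean in each of the 12 IEC libraries, as log2(CPM + 1), for all reads (red) and without mitochondrial genes (blue). Filled points are the median of the 56 genes with the middle 50% as bars, and open points the median of 9658 genes. Lower panel: mitochondrial reads in percent of all reads. TSO DSS rabbit 3 moves from -1.54 to -1.27 between the scalings, and Veh DSS rabbit 2, with 12.4% mitochondrial reads, is at -1.51 and -1.68.

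The first question was whether DSS alone lowered the same genes. This comparison uses the Veh Water libraries that also chose the genes, which were required to be high there. Its counts, calls and p-values are therefore a description and no evidence apart from the choice. On the scale of log2(CPM + 1), on which group means are compared from here on, all 56 had a lower mean in IEC of Veh DSS than of Veh Water, where 65.2% of 9734 tested genes did. By mean CPM, ENSOCUG00000027187 and ENSOCUG00000015772 were not lower, with 6.95 and 3.84 CPM in Veh DSS and 3.41 and 3.84 CPM in Veh Water. The median change was -0.89 and the range -2.62 to -0.02, in comparison to a median of -0.12 over all tested genes. All 56 could be tested, but ENSOCUG00000015238 and ENSOCUG00000012402 were under 1 CPM in every Veh DSS library and passed the filter on low values through Veh Water alone. Only ENSOCUG00000021800 was called after adjustment, with a log2 fold change of -2.62 ± 0.20 (SE) and a limma adjusted p-value of 0.0132, where 0.0514% of all genes were called lower. Its adjusted p-value was 0.0078 without Veh DSS rabbit 1 and between 0.0535 and 0.240 without any other of the 6 libraries, while the change stayed between -2.68 and -2.58.

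Ova alone were compared with the same controls, which were required to be high, so that lower values in TSO Water are in part built into the choice. In IEC of TSO Water, 53 of the 56 genes had a lower mean than in Veh Water, where 82.5% of 9608 tested genes did. The median change was -0.54 with a range of -1.54 to 0.33, in comparison to -0.22 over all genes. By limma, 0 of the 56 genes were called, where 0.0208% of all genes were. At an unadjusted p-value under 0.05, 13 passed, where 3.07% of all genes did. They include ENSOCUG00000015246, which was under 1 CPM in every TSO Water library and passed the filter through Veh Water alone. The 13 are no evidence apart from the choice, and their number was 8 without mitochondrial genes and 7 with TMM factors, 20 and 7 without Veh Water rabbit 1 or 3, and 25 and 6 without TSO Water rabbit 1 or 2. Without mitochondrial genes, the median over the set in the 3 TSO Water libraries lay between -0.38 and -0.26 and that over all genes between -0.040 and -0.010.

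In 33 of the 56 genes, the IEC means fell from Veh Water to TSO Water to Veh DSS to TSO DSS. Of 10059 genes with at least 1 CPM in at least 3 of the 12 IEC libraries, 14.6% had this order. Without mitochondrial genes, it was found for 33 of the 56 and 8.87% of all genes. Without Veh DSS rabbit 2, it was found for 21 of the 56 and 10.2% of all genes. By all reads and rabbits, Veh Water had the highest and TSO DSS the lowest mean in 43 of the 56. In 76.7% of these 43, Veh DSS lay below TSO Water. The share was 43.5% of the 3366 genes of the whole table with the same ends. Without mitochondrial genes, these shares were 94.3% of 35 and 75.5% of 1181 genes, and without Veh DSS rabbit 2 they were 46.7% of 45 and 32.6% of 3144 genes. Veh DSS lay between Veh Water and TSO DSS in 47 genes and below TSO DSS in 9, and TSO Water lay between Veh Water and TSO DSS in 51. The ends of this order were fixed by the choice of the genes. Within Veh DSS, rabbit 2 held the lowest value for 40 of the 56 genes and had a median change of -1.51, in comparison to -0.68 in rabbit 1 and -0.65 in rabbit 3. By CPM over all reads, Veh DSS rabbit 2 and TSO DSS rabbit 3 were thus the rabbits in which the set was lowest. Without mitochondrial genes, the medians were -1.68 in Veh DSS rabbit 2, -1.27 in TSO DSS rabbit 3 and -1.25 in TSO DSS rabbit 1.

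Veh DSS and TSO Water are the IEC groups whose libraries did not enter the choice. Of the 56 genes, 44 had a lower mean in Veh DSS than in TSO Water. Of these 56 genes, 52 had at least 1 CPM in at least 3 of the 6 libraries and were tested. Their median log2 change was -0.31, in comparison to 0.11 over all 9650 tested genes. A lower mean in Veh DSS was found for 41 of the 52, where 31.4% of all genes had one. The groups did not overlap for 4 genes, ENSOCUG00000021800, ENSOCUG00000023274, ENSOCUG00000013163 and ENSOCUG00000027648, all lower in Veh DSS, in comparison to 1.36% of all genes in this direction. Whether some of these 4 share reads was not tested. A log2 change under -1 with an unadjusted p-value under 0.05 was found for 5 genes, where 0.508% of all genes had one. After adjustment, 1 gene was called lower, where 0.0829% of all genes were. Without Veh DSS rabbit 2, the median over the same 52 genes was -0.041 in place of -0.31, and 27 of the 52 had a lower mean in Veh DSS, where 27.8% of all genes did. The direction over all genes depended on the mitochondrial reads. Without mitochondrial genes, the median over all tested genes was -0.10 in place of 0.11, and 65.9% of them had a lower mean in Veh DSS. The median of the set was then -0.51, with a lower mean in 49 of the 52 genes and no overlap in 8, where 5.42% of all genes did not overlap.

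The gene called was ENSOCUG00000021800, with a log2 change of -2.22 ± 0.27 (SE) and a limma adjusted p-value of 0.0315. Leaving out any 1 of the 6 libraries kept the change between -2.31 and -2.13. The adjusted p-value was then 0.0745 without Veh DSS rabbit 2, 0.185 without Veh DSS rabbit 3, 0.187, 0.293 and 0.228 without TSO Water rabbit 1, 2 or 3, and 0.0044 without Veh DSS rabbit 1. TSO Water rabbit 2 is the rabbit of this comparison that was kept in room B. Over all alternatives it ranged from 6.74e-22 with DESeq2 to 0.293. ENSOCUG00000023274 had a log2 change of -1.66 ± 0.28 and an adjusted p-value of 0.148. ENSOCUG00000028992 and ENSOCUG00000013163 had changes of -1.34 and -1.43, with adjusted p-values of 0.657 and 0.569 by limma. The spread among the 3 rabbits of a group was larger for the last 2 genes than for ENSOCUG00000021800.

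In LPMC, few genes of the set were called. Of the 56 genes, 41 could be tested for Veh DSS against Veh Water and 38 for Veh DSS against TSO Water and for TSO Water against Veh Water. The others were under 1 CPM in too many LPMC libraries. The median log2 change of the tested genes was -0.15 for Veh DSS against Veh Water, 0.17 for Veh DSS against TSO Water and -0.23 for TSO Water against Veh Water. Over all tested genes these medians were 0.055, 0.027 and 0.023. Under the alternatives, the medians of the set ranged from -0.27 to -0.0089, from 0.095 to 0.42 and from -0.51 to -0.090. The LPMC libraries of Veh DSS and TSO Water entered the choice only by the criterion of a value above 0. For Veh DSS against TSO Water, the groups did not overlap in 5 genes with Veh DSS lower and in 6 with Veh DSS higher, in comparison to 7.98% and 9.67% of all genes. For TSO Water against Veh Water, 0 genes of the set were called by limma, where 0.0792% of all genes were, and 3 passed at an unadjusted p-value under 0.05, where 6.7% of all genes did.

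The genes called in LPMC for Veh DSS were ENSOCUG00000023274 and ENSOCUG00000021800. ENSOCUG00000023274 was at 237, 225 and 216 CPM in LPMC of Veh Water, 259, 284 and 218 CPM in TSO Water, 82.0, 71.0 and 76.3 CPM in Veh DSS and 74.3, 69.0 and 346 CPM in TSO DSS. It was the 1 gene of 38 tested that was called lower in Veh DSS than in TSO Water, where 0.0793% of all genes were. The log2 change was -1.71 ± 0.14 (SE) and the limma adjusted p-value 0.0144. Against Veh Water the change was -1.55 ± 0.11 and the adjusted p-value 0.0193. Against TSO Water, the adjusted p-value was 0.0781 and 0.0935 without Veh DSS rabbit 2 or 3, 0.114 and 0.116 without TSO Water rabbit 1 or 2, 0.0255 without Veh DSS rabbit 1 and 0.0216 without TSO Water rabbit 3, while the change stayed between -1.82 and -1.63. Against Veh Water it was 0.0182 without Veh DSS rabbit 1 and between 0.0759 and 0.174 without any other library, while the change stayed between -1.61 and -1.50. TSO DSS rabbit 3 stood apart from the other DSS rabbits, above every rabbit without DSS.

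ENSOCUG00000021800 was at 6.12, 5.88 and 5.56 CPM in LPMC of Veh Water, 5.93, 8.79 and 6.02 CPM in TSO Water, 0.862, 1.08 and 0.762 CPM in Veh DSS and 0.724, 1.23 and 10.3 CPM in TSO DSS. Its change in Veh DSS was -1.85 ± 0.19 (SE) against Veh Water, with a limma adjusted p-value of 0.0446, and -2.04 against TSO Water, with 0.0521. These 2 genes were the only ones of the 41 tested that were called for Veh DSS against Veh Water in LPMC, both lower, where 0.0496% of all genes were called lower. The LPMC Veh Water libraries also entered the choice, by the limit on the LPMC change, so that these 2 calls are not independent of it. The call of ENSOCUG00000021800 was lost without any 1 of the 6 libraries, with adjusted p-values between 0.0618 and 0.322, while the change stayed between -1.92 and -1.80. Both genes lay below both water groups in all 3 Veh DSS rabbits and in TSO DSS rabbits 1 and 2, in IEC and in LPMC. In TSO DSS rabbit 3 both were higher than in any other DSS rabbit, again in both cell types. Whether these 2 genes share reads was not tested.

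ENSOCUG00000027648 on chromosome 2, named after its values were seen, had the same pattern at a smaller size. In IEC it was at 12.7, 13.7 and 13.1 CPM in Veh Water, 10.8, 7.97 and 9.97 CPM in TSO Water, 3.85, 2.72 and 5.59 CPM in Veh DSS and 3.08, 3.38 and 6.09 CPM in TSO DSS. In LPMC it was at 6.55, 5.97 and 5.38, at 6.00, 8.98 and 6.57, at 3.13, 2.35 and 2.98, and at 3.98, 2.60 and 10.3 CPM in the same order of groups. Its ratio to ENSOCUG00000023274, which lies on another chromosome, stayed within 28.8 to 44.7 reads of ENSOCUG00000023274 for each read over the 12 IEC libraries. It was not called in Veh DSS against TSO Water, with log2 changes of -1.09 in IEC and -1.09 in LPMC and limma adjusted p-values of 0.455 and 0.176. In IEC of Veh Water, ENSOCUG00000027648 held 348, 294 and 172 reads and ENSOCUG00000021800 held 332, 295 and 172. In IEC of Veh DSS they came apart, with 103, 53 and 80 reads against 39, 23 and 17. Whether ENSOCUG00000021800, ENSOCUG00000023274 and ENSOCUG00000027648 share reads was not tested, and they may not be separate measurements.

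ENSOCUG00000007393 on chromosome 16, also named after its values were seen, varied between animals. In IEC it was at 60.2, 107 and 79.4 CPM in Veh Water, 105, 22.0 and 83.8 CPM in TSO Water, 2.24, 56.6 and 28.3 CPM in Veh DSS and 49.1, 28.1 and 35.2 CPM in TSO DSS. LPMC of the same rabbits held 37.5, 79.5 and 62.0, then 71.4, 25.2 and 83.5, then 1.62, 69.6 and 31.0, then 49.0, 36.3 and 61.9 CPM. Veh DSS rabbit 1 was the lowest of the 12 rabbits in both cell types and TSO Water rabbit 2 the lowest of the rabbits without DSS in both. Its difference between IEC and LPMC in the Veh DSS and TSO Water rabbits was 0.04 ± 0.85 (SE) on the log2 scale.

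**Figure D4:**
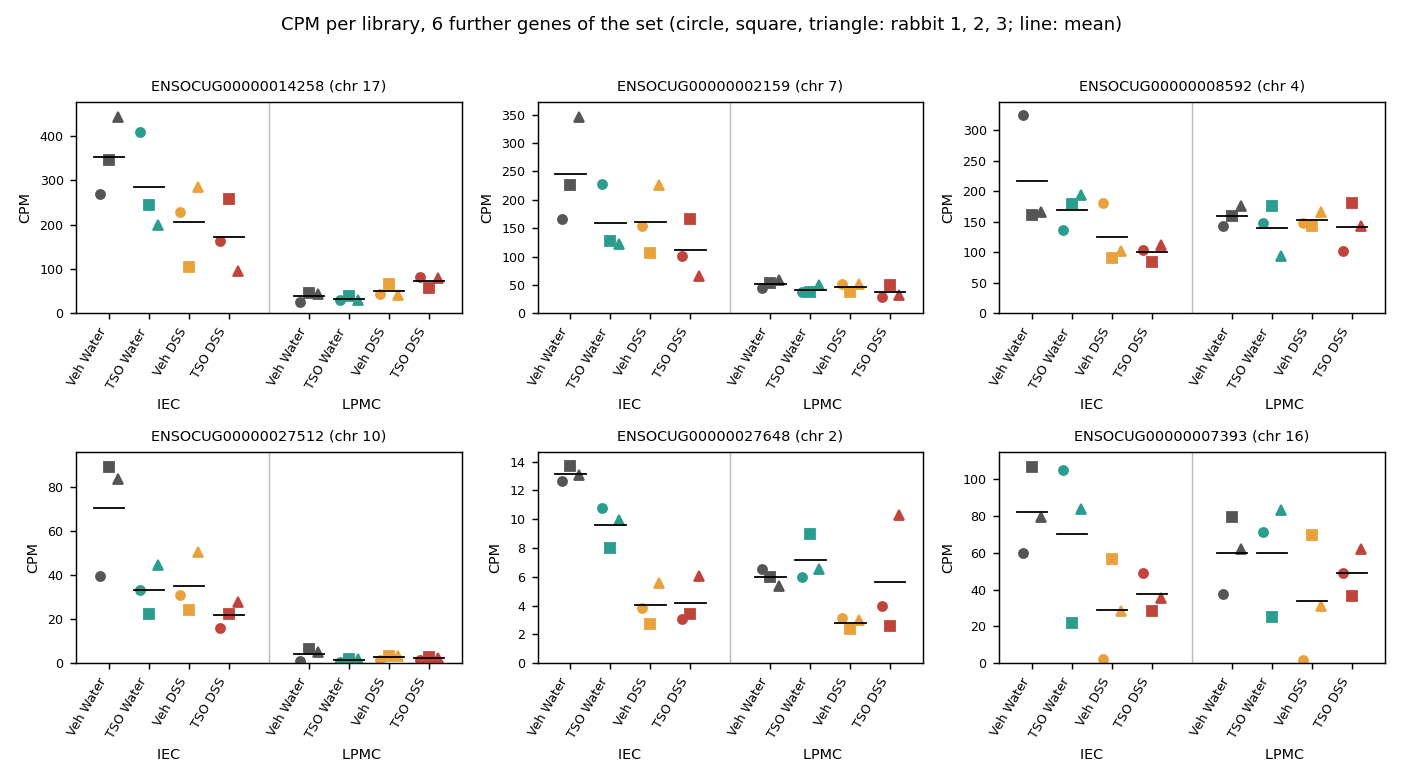
CPM per library (linear axis from 0) of 6 further genes of the set, for IEC on the left and LPMC on the right of each panel, with rabbits 1, 2 and 3 as circle, square and triangle and the group mean as a line. ENSOCUG00000007393 is near 0 in both cell types of Veh DSS rabbit 1 (2.24 and 1.62 CPM), and ENSOCUG00000027648 is highest among the DSS rabbits in both cell types of TSO DSS rabbit 3 (6.09 and 10.3 CPM).

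IEC and LPMC were then compared within the 3 Veh DSS and 3 TSO Water rabbits, whose values entered the choice only by the criterion of a value above 0 in LPMC. ENSOCUG00000019348 met this criterion through them alone, with 17 reads in LPMC of TSO Water rabbit 3 and 0 in the other 11 LPMC libraries, and it was tested and not called. Of the 54 genes tested, 30 were called higher in IEC, where 3.54% of all 10415 genes were, and 2 were called lower, where 12.2% were. The median difference was 1.23 on the log2 scale, in comparison to -0.03 over all genes. All 6 IEC libraries were above all 6 LPMC libraries for 23 genes, in comparison to 5.26% of all genes. Of the 30 genes called higher, ENSOCUG00000011869, ENSOCUG00000017862, ENSOCUG00000025800 and ENSOCUG00000026118 were under 1 CPM in all 6 LPMC libraries. These genes passed the filter on low values through IEC alone. The calls were not independent of how the set was made. A fall beyond 1 on this scale required more than 1 CPM in IEC, and a gene that was scarce in LPMC could not fall there by more than the limit, as was the case for 15 genes with less than 1 CPM in LPMC of Veh Water. Of the 118 genes that only the LPMC criterion had left out, 2 were higher in IEC and 23 lower, with a median of -0.24.

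The genes with the largest differences lay on chromosomes 17 and 10. ENSOCUG00000028992 was higher in IEC by 4.20 ± 0.33 (SE) on the log2 scale, with a limma adjusted p-value of 5.22e-06. ENSOCUG00000027512 on chromosome 10 was at 30.9, 24.2 and 50.5 CPM in IEC and 1.51, 3.42 and 3.12 CPM in LPMC of Veh DSS, and at 33.3, 22.5 and 44.5 CPM in IEC and 0.621, 1.87 and 1.98 CPM in LPMC of TSO Water. Its difference was 3.53 ± 0.26 and its adjusted p-value 4.17e-06 by limma. In IEC of Veh Water it was at 39.6, 89.0 and 83.7 CPM and in TSO DSS at 15.8, 22.2 and 28.0 CPM. The 6 IEC and the 6 LPMC libraries did not overlap for either gene.

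ENSOCUG00000021471 and ENSOCUG00000025628, on the same strand of chromosome 10, gave nearly the same values. ENSOCUG00000021471 was at 22.7, 38.9 and 36.2 CPM in IEC of Veh Water, 34.8, 14.1 and 18.3 CPM in TSO Water, 18.9, 10.7 and 27.7 CPM in Veh DSS and 13.5, 21.2 and 9.95 CPM in TSO DSS. Its ratio to ENSOCUG00000025628 lay between 1.04 and 1.10 in all 12 IEC libraries. Both were higher in IEC than in LPMC, by 3.37 ± 0.28 and 3.34 ± 0.27. Whether the counting assigned the same reads to both is not known here, and they may be 1 measurement.

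ENSOCUG00000025800 on chromosome 10 and ENSOCUG00000023316 on chromosome 17 complete the 6 genes with the smallest adjusted p-values. ENSOCUG00000025800 was at 4.90, 3.44 and 6.99 CPM in IEC of Veh DSS and at 6.79, 3.58 and 5.92 CPM in TSO Water, with at most 0.539 CPM in the LPMC libraries of these rabbits. It thus passed the filter on low values through IEC alone. ENSOCUG00000023316 was at 15.1, 9.79 and 19.4 CPM and at 18.3, 13.1 and 14.1 CPM in IEC of the same groups. In LPMC it was at 2.05, 3.42 and 2.22 CPM in Veh DSS and at 0.897, 0.935 and 0.871 CPM in TSO Water. Its LPMC values were thus higher in every Veh DSS than in every TSO Water rabbit, with a log2 change of 0.89 ± 0.24 and a limma adjusted p-value of 0.246.

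A smaller number of genes was not called higher in IEC. ENSOCUG00000011745 on chromosome 20 was lower in IEC than in LPMC by 1.68 ± 0.26 on the log2 scale, with a limma adjusted p-value of 0.00052. It was at 31.1, 19.4 and 37.5 CPM in IEC of Veh DSS and at 28.3, 15.0 and 20.8 CPM in TSO Water. LPMC of these rabbits held 115, 53.5 and 74.4 CPM and 52.4, 105 and 105 CPM. In IEC of TSO DSS it was at 25.5, 20.6 and 5.12 CPM, where rabbit 3 was far below the others, and in Veh Water at 28.9, 25.8 and 45.3 CPM.

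ENSOCUG00000006934 and ENSOCUG00000011150, both on the minus strand of chromosome 3, had the next lowest differences. ENSOCUG00000006934 was lower in IEC by 1.04 ± 0.24 on the log2 scale, with a limma adjusted p-value of 0.0055. It was called under 13 of 20 alternatives, and the difference ranged from -1.24 to -0.91 over them. It was at 6.69, 3.02 and 2.38 CPM in IEC of Veh DSS and 1.81, 4.12 and 4.12 CPM in TSO Water, in comparison to 8.09, 7.86 and 10.9 CPM and 6.41, 9.81 and 6.57 CPM in LPMC. For ENSOCUG00000011150 the difference was -0.60 ± 0.30 and the adjusted p-value 0.157, both by limma. A total of 22 genes were tested and not called, and 2, ENSOCUG00000012402 and ENSOCUG00000015246, were too low to be tested. ENSOCUG00000012402 had 0, 1 and 2 reads in IEC of TSO DSS and 52, 41 and 21 reads in Veh Water.

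**Figure D5:**
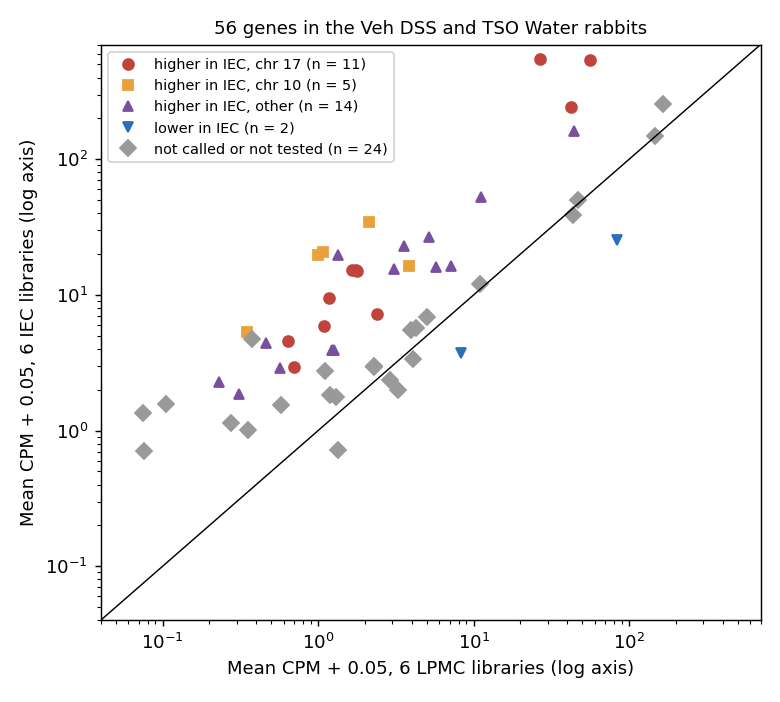
Mean CPM of the 56 genes in the 6 IEC (vertical) and 6 LPMC (horizontal) libraries of the Veh DSS and TSO Water rabbits, on log axes with 0.05 CPM added and the line of equal values. Points are genes, coloured by the limma call of IEC against LPMC; all 11 genes on chromosome 17 and all 5 on chromosome 10 lie above the line among the 30 called higher in IEC, and 2 genes called lower lie below it.

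The 56 genes were spread over 18 chromosomes, with 26 on the plus and 30 on the minus strand. Chromosome 17 carried 11 of them, or 19.6%, in comparison to 4.92% of the nuclear and mitochondrial genes above 0 in LPMC. Chromosome 10 carried 5, or 8.93% in comparison to 1.88%, and chromosome 1 carried 9, or 16.1% in comparison to 8.95%. No member lay on chromosomes 5, 9, 15 or 18. The tables give no start or end, so that the distance between the genes of a chromosome is not known here, and the share was not tested.

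All 11 genes on chromosome 17 and all 5 on chromosome 10 were called higher in IEC than in LPMC. The share was 55.6% over the 54 tested genes of the set and 3.54% over all genes. ENSOCUG00000025800 on chromosome 10 passed the filter on low values through IEC alone. The 5 on chromosome 10 include ENSOCUG00000021471 and ENSOCUG00000025628, which may be 1 measurement. On chromosome 17 the difference ranged from 1.23 to 4.20 on the log2 scale with a median of 2.45, and on chromosome 10 from 1.78 to 3.53 with a median of 3.34. The other 14 genes called higher were 3 on chromosome 1, 3 on chromosome 13, 2 on chromosome 2 and 1 each on chromosomes 7, 8, 12, 19, 21 and X. By CPM over all reads, the 11 genes on chromosome 17 all had their lowest Veh DSS value in rabbit 2. Their lowest TSO DSS value was in rabbit 3, the library with 46.5% mitochondrial reads. The lowest rabbits were not counted without mitochondrial genes. The IEC means of the 11 genes were all lower in Veh DSS than in TSO Water, with a median change of -0.51. The same held for 41 of the 52 tested genes of the set and for 31.4% of all genes. Without mitochondrial genes, it held for 11 of the 11, for 49 of the 52 and for 65.9% of all genes. Without Veh DSS rabbit 2, 7 of the 11 were lower and the median was -0.088. In LPMC, the change in TSO DSS had a median of 0.46 over these genes, and 4 of the 11 were below 0. The rule used this change too, since genes at -1 or below in LPMC were left out.

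The 30 genes called higher in IEC and the other 26 had a similar change in IEC of TSO DSS, by which they had been chosen, but differed in abundance. The median change was -1.21 in the 30 genes and -1.29 in the 26. For the 30 genes the median level in IEC was 18.1, 25.0 and 28.0 CPM in Veh Water, 20.3, 13.1 and 15.6 CPM in TSO Water, 14.3, 6.56 and 19.1 CPM in Veh DSS and 9.69, 14.3 and 5.63 CPM in TSO DSS. Veh Water rabbit 1 was the lowest control for 26 of them. The median correlation between pairs of these genes over the 12 IEC libraries was 0.82, and 0.46 among the other 26, which are less abundant. The 12 libraries are shared by all pairs, and a library that is high or low as a whole moves all genes together, so these values are a description only.

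For the other 26 genes, the median level in IEC was 5.84, 4.59 and 4.87 CPM in Veh Water, 2.35, 2.86 and 3.64 CPM in TSO Water, 3.79, 2.36 and 2.03 CPM in Veh DSS and 1.76, 1.37 and 1.39 CPM in TSO DSS. Their TSO DSS minimum was in rabbit 1 for 11, in rabbit 2 for 6 and in rabbit 3 for 9. Their mean in IEC of Veh Water ranged from 1.23 to 476 CPM, and 2 of the 26 had 3 reads or fewer in every IEC library of TSO DSS. Of all 56 genes, 6 had 3 reads or fewer in every LPMC library of TSO DSS. ENSOCUG00000027187 on chromosome 16, named after its values were seen, was at 20.0 CPM in IEC of Veh DSS rabbit 2 and between 0.224 and 4.01 CPM in the other 11 IEC libraries.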

How the data were processed

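RNA of IEC and LPMC from 12 rabbits was measured by RNAseq. The authors deposited a normalized signal per gene and library in 6 tables, in each of which 1 treated group stands beside Veh Water of the same cell type. In this signal, reads are multiplied by a factor that differs between libraries and tables, and 100% of the values under 1000 were within 0.1 of a whole number of reads. The tables also hold the authors' own log2 ratio, p-value and FDR, which were not used. Per the labels, the submitters' processing notes name OryCun2.0 and FastQC, and the aligner and counter are not given in the sources used here. The labels state unstranded poly(A) libraries, so that reads of overlapping genes on opposite strands cannot be told apart. Rooms came from the metadata of the study.

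CPM was each column divided by its sum times 1000000, which removes the factor. The Veh Water libraries occur in 3 tables, and their CPM differed by at most 0.0916% between tables. limma 3.58.1 (trend, R 4.3.3) was run on log2(CPM + 1), which understates the change of low genes, over genes with at least 1 CPM in at least 3 libraries of the groups compared. A call required a p-value under 0.05 after Benjamini-Hochberg adjustment over all genes tested and a log2 fold change beyond 1 in either direction. Each fit held only the groups compared, and IEC against LPMC had the group as a covariate. The p-values are two-sided and rest on 3 rabbits per group. The floor was set at 3 reads per library.

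The genes, and the lists below, were chosen with earlier results of these data known. The genes named are the 6 with the largest fall, the 6 most abundant, up to 6 called in each comparison not using IEC of TSO DSS, the 3 largest and 3 smallest differences between IEC and LPMC, and 3 on each side of the threshold. A name table of 38822 genes (mOryCun1.1) matched 0 of the 17318 identifiers, so that lists of cell type markers and of transport and metabolism genes could not be used. On simulated reads, 141 of 200 genes changed 4-fold were called for IEC of Veh DSS against TSO Water, with 3 false calls among 9665 genes, and 164 of 200 for IEC against LPMC, with 6 false calls among 10495. IEC and LPMC of a rabbit are true pairs, and across genes their deviations from the means of their groups had correlations of -0.15 to 0.41 (mean 0.12), and a block for the rabbit left the 32 calls of IEC against LPMC at 32. Alternatives were CPM without mitochondrial genes, TMM factors, a pseudocount of 0.1, no filter, a replicate block, DESeq2 1.42.0 and the quasi-likelihood test of edgeR 4.0.16 on whole reads, room A only, all 12 libraries of the cell type, and each replicate left out. Figures were drawn with matplotlib 3.10.9.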

Additional observations from a re-analysis of the deposited data

How the results depend on the processing

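The set itself depended on the scaling and on single rabbits. The rule found 27 genes with TMM factors, 123 with a pseudocount of 0.1 and 129 in room A only, of which 27, 47 and 44 were among the 56. Leaving out a rabbit gave 75 to 160 genes, the most without TSO DSS rabbit 2, and 30 of the 56 remained without TSO DSS rabbit 3; with fewer libraries the criterion of no overlap is easier to meet. A total of 10 genes were found under all 10 alternatives, ENSOCUG00000013163 and ENSOCUG00000027648 among them. Of the 30 genes called higher in IEC than in LPMC, 28 were called under all 20 alternatives, as was 1 of the 2 called lower, with 29 to 37 calls over all alternatives and 29 to 33 with a library left out, and the calls of TSO Water against Veh Water were 0 in both cell types under every alternative. The 5 calls that concern Veh DSS did not hold throughout. For IEC against TSO Water (1 call), the count was 2 with TMM factors, 3 with DESeq2 and 0 without a filter, with a replicate block, by the quasi-likelihood test, in room A only and with all 12 libraries, and 0 to 2 with a rabbit left out. For IEC against Veh Water (1 call), it was 2 with TMM factors or a pseudocount of 0.1, 4 with DESeq2 and 0 with the block, in room A only and with all 12 libraries, and 0 to 2 with a rabbit left out. For LPMC against TSO Water (1 call), it was 2 with TMM factors, 5 with DESeq2 and 0 with the block, in room A only and with all 12 libraries, and 0 to 1 with a rabbit left out. For LPMC against Veh Water (2 calls), it was 1 with a pseudocount of 0.1 or the quasi-likelihood test and 0 with the block, in room A only and with all 12 libraries, and 0 to 1 with a rabbit left out. The replicate numbers mark different animals across groups, and deviations of same-numbered libraries correlated between -0.56 and 0.42, so the block does not describe pairs. Over all genes, IEC of TSO DSS against Veh Water gave 272 calls, 174 with the block, 663 with DESeq2, 19 with all 12 libraries and 86 to 296 with a rabbit left out. The cause of these differences was not tested. In IEC of TSO DSS against Veh Water, the median of all genes was -0.24. It was -0.064 without mitochondrial genes and -0.024 with TMM factors. Without mitochondrial genes, the median over 9658 genes moved from -0.52 to 0.013 in TSO DSS rabbit 3. It moved from -0.144 to -0.139 in rabbit 1 and from -0.060 to -0.049 in rabbit 2. How far the changes of the set share this shift was not tested. In the comparisons not using IEC of TSO DSS, no call of a named gene changed direction under an alternative run. The direction of the other calls was not compared gene by gene. Between groups in LPMC, 41 or 38 of the 56 reached 1 CPM in enough libraries to be tested.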
